A study of Mus musculus with 365 samples.

Results

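The 10 genes described here are known as immediate-early or activation genes: Egr1, Fos, Fosb, Jun, Junb, Ier2, Nr4a1, Btg2, Cd69 and Dusp2. They were taken by Entrez identifier from a table of read counts for 23427 genes, and all 10 were present. The cells were haematopoietic progenitors from the femur marrow of C57BL/6 Flt3Ltg mice, which carry a transgene for Flt3 ligand, and each label names a pool of 2 mice. All groups share that transgene, so no cell came from a mouse without it. The sorted compartment, EPLM, holds early progenitors with lymphoid and myeloid potential. It was divided into a triple negative (TN) population of 213 cells on chips 1, 2 and 3 and a Ly6D+ population of 152 cells on chips 4, 5 and 6. The sources used here give neither the age of the mice nor which mice went on each Fluidigm C1 capture chip.

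Immediate-early genes are transcribed soon after a signal reaches the cell, without new protein being made. Fos, Fosb, Jun and Junb encode subunits of the AP-1 transcription factor, Egr1 a zinc finger factor and Nr4a1 an orphan nuclear receptor. Ier2 encodes a small nuclear protein, and Btg2 an antiproliferative cofactor of mRNA deadenylation. Dusp2 encodes a phosphatase that inactivates MAP kinases, and Cd69 a surface lectin that holds lymphocytes in tissue by binding the sphingosine phosphate receptor S1pr1. Dissociation, sorting and capture are also known to switch on such genes in single-cell work.

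Chips held 40 to 75 cells and 35734620 to 61415823 reads, and single cells held 267852 to 1854600 reads. Each chip carried 1 population, so chip and population cannot be told apart, and the spread behind each p-value is that between chips, part of which may be technical. Of markers of other blood cells, Cd3e, Ncr1, Gzma, Hba-a1, Hbb-b1, Klf1, Ltf, Camp, Retnlg and C1qa were at 0 in every cell. The progenitor labels matched their markers in part: Dntt, the terminal transferase of lymphoid progenitors, was detected in all but 11 Ly6D+ cells and in 65 TN cells, and Ly6d in all but 8 Ly6D+ cells and in 31 TN cells.

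Upstream sequence is shown for Fos, Fosb and Dusp2, a pair of genes that varied together across cells and a gene that stood apart between populations. Each run is the 250 bases before the gene's start, 5′ to 3′ on the gene's strand, from RefSeq on GRCm38.p6, which is not the build of the counts. Capitals mark the core of the CREB-binding element (TGACG) and the EGR site (GCGTGGGCG or GCGGGGGCG), searched on both strands.
Fos, chr12:85473640-85473889, + strand: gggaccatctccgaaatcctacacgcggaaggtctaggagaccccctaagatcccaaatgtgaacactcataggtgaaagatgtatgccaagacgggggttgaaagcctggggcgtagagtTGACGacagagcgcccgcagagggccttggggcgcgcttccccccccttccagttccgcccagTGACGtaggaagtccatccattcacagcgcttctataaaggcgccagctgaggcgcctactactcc
Fosb, chr7:19310046-19310295, − strand: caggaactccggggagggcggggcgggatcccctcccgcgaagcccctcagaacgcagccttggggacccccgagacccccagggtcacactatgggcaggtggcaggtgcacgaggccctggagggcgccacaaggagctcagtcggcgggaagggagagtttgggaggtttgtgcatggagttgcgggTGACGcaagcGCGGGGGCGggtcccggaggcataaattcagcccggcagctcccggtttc
Dusp2, chr2:127335909-127336158, + strand: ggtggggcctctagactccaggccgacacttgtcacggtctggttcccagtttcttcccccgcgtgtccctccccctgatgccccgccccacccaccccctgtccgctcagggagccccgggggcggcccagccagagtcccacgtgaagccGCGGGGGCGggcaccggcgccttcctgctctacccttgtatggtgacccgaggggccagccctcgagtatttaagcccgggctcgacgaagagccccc

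Windows were given for 7 of the 10 genes, all but Egr1, Ier2 and Cd69, and were searched over 300 bases that include 50 after the start. TGACG was found in 6 of the 7 (all but Jun), against 20.8% of 32851 promoters of the same length. Within it, the full element TGACGTCA was found in Btg2, against 1.79% of promoters. The match in Dusp2 lies after its start and so is outside the printed run. The EGR site was found in Dusp2, Fosb and Nr4a1, against 3.47%. The ETS core GGAAG was found in 5 of 7, against 71.4%, and neither the AP-1 site TGANTCA (7.81% of promoters) nor the CArG box (1.63%) was found in any of the 7. These are matches of letters only.

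Cd69 and Dusp2 had the largest differences between the populations among the 10 genes, and both were higher in Ly6D+ cells. Cd69 reached 2010, 1006 and 1966 CPM (reads scaled to a common library size, from the summed cells of a chip) on the TN chips and 3229, 4142 and 5148 CPM on the Ly6D+ chips. Every Ly6D+ chip lay above every TN chip, and TN chip 2 was the lowest. The log2 fold change was 1.33 ± 0.29 (SE, n = 3 chips per population), or 2.51-fold, with an adjusted p of 0.185 by edgeR's quasi-likelihood test (Benjamini-Hochberg over 11797 genes). Dusp2 reached 227, 158.5 and 166.9 CPM on the TN chips and 387, 543 and 481 CPM on the Ly6D+ chips, which again did not overlap. Its log2 fold change was 1.35 ± 0.24 (SE), or 2.56-fold, with an adjusted p of 0.0972 by edgeR.

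None of the 10 genes passed edgeR's threshold of 0.05, where 0.0932% of all tested genes were called higher and 0.11% lower in Ly6D+. At an unadjusted p under 0.05, 2 of 10 (Cd69 and Dusp2) were higher, against 4.27% of tested genes, and 0 were lower, against 4.1%. Other tools called both: DESeq2 gave adjusted p = 0.00113 for Cd69 and 6.19e-05 for Dusp2, and limma-trend on chip means of log2 CPM gave 0.000186 and 0.000399. Both tools also called more genes in all, 390 (DESeq2) and 326 (limma-trend) of 11797 tested, against 24 by edgeR. The limma fit weighs cells equally on a log scale, and its log2 fold changes were 3.10 for Cd69 and 2.72 for Dusp2. Leaving out 1 chip at a time, edgeR's adjusted p stayed above the threshold, at 0.255 to 0.370 for Cd69 and 0.167 to 0.331 for Dusp2.

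The other 8 genes differed by less than their error allowed a call. Btg2 lay at 1323, 1392 and 1331 CPM on TN and 1864, 1737 and 1420 CPM on Ly6D+ chips, which did not overlap (log2 fold change 0.31 ± 0.16, SE; edgeR adjusted p = 0.674). Jun lay at 152.4, 157.7 and 152.8 CPM against 196.7, 347.5 and 166.1 CPM, with the excess mostly on Ly6D+ chip 5 (0.62 ± 0.31, SE; edgeR adjusted p = 0.672). Egr1 lay at 502, 576 and 458 CPM against 713, 771 and 399 CPM, and Nr4a1 at 298.4, 189.9 and 122.3 against 263.2, 169.1 and 242.7 CPM. In both, the chips of the populations overlapped. Fos lay at 936, 737 and 1813 CPM on TN and 499, 1147 and 934 CPM on Ly6D+ chips, and its partner Fosb at 156.4, 118.6 and 160.4 against 91.1, 141.3 and 148.6 CPM. Junb lay at 63.99, 78.5 and 16.7 CPM against 15.5, 31.3 and 52.8 CPM, and Ier2 at 62.4, 104.8 and 33.6 against 24.9, 95.5 and 46.2 CPM. Chip values of 4 of 10 genes (Jun, Btg2, Cd69 and Dusp2) did not overlap with Ly6D+ above, against 7.64% of tested genes, and 0 with Ly6D+ below, against 7.75%. Without each gene's top cell on each chip, Jun lay at 160.7, 160.2 and 168.2 CPM on TN and 209.95, 323 and 158.04 on Ly6D+ chips. Btg2 then lay at 1338, 1492 and 1477 against 2057, 1783 and 1469 CPM. Jun and Btg2 thus overlapped, while Cd69 and Dusp2 still did not. The share of all tested genes is not given for that setting.

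**Figure D1:**
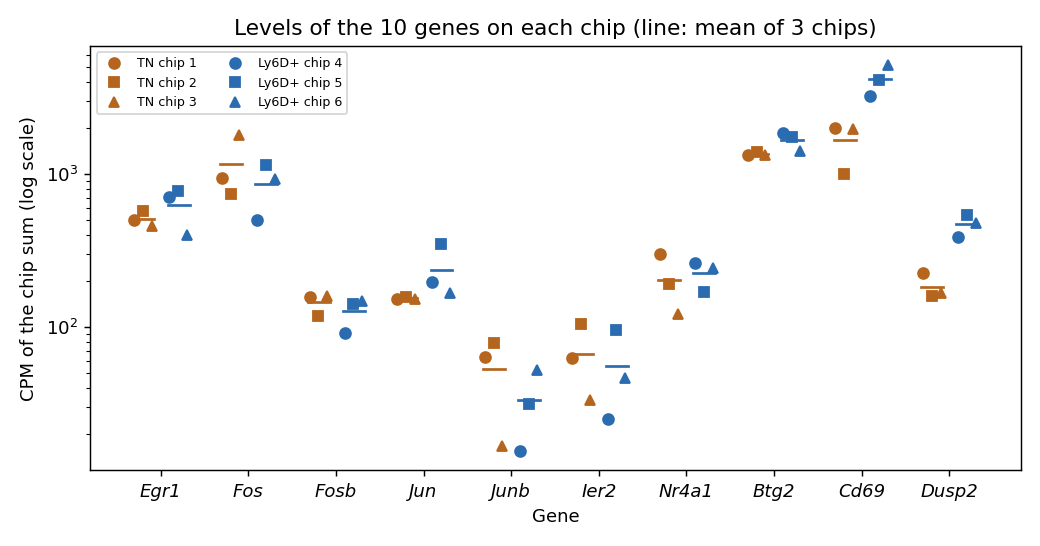
Level of each gene on each chip, in CPM of the summed cells on a log axis; points are chips, and lines are means of 3 chips. For Cd69, Dusp2, Btg2 and Jun the 3 Ly6D+ chips lie above the 3 TN chips, while Junb and Ier2 are spread most within a population.

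Per kilobase of the deposited gene length, Cd69 was the highest of the 10 in both populations, at 1025 ± 350 CPM per kb in TN and 2576 ± 593 in Ly6D+ (SD, n = 3 chips). In TN it was followed by Fos (555 ± 274) and Btg2 (437 ± 12.2), then Egr1 (166.7 ± 19.3), Dusp2 (113.8 ± 23.1) and Nr4a1 (82.2 ± 35.9). Jun (48.4), Ier2 (43.97), Fosb (38.4) and Junb (28.8 CPM per kb) were lowest. The only neighbours in that order whose chips did not overlap were Btg2 and Egr1, and Egr1 and Dusp2. In Ly6D+ the order was Cd69, Btg2 (543 ± 74.3), Fos (410.8 ± 157.6), Dusp2 (291 ± 48.7), Egr1 (204.4 ± 65.1) and Nr4a1 (90.9 ± 19.98), with the same 4 genes lowest. Here Cd69 and Btg2, and Egr1 and Nr4a1, were the only neighbours that did not overlap.

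Single cells fell into those with none of a transcript and those with much of it, to a degree that differed between the genes. Each cell was thinned to 200000 reads, and detection meant 5 or more of them, equal to 25 CPM. Cd69 was the most switch-like: of the cells with any read of it, 2.59% held 1 to 4 reads and 88.4% held 50 or more. Among 875 genes detected in 60 to 95% of cells, the medians of these shares were 9.72% and 47.5%. Genes compared in this way were alike in detection and not in level, and Cd69 had the highest level of the 10 per kilobase. The part of level in these shares was not tested. Of all TN cells 23% held no read of Cd69 and 64.3% held 50 or more. In Ly6D+ few cells lacked it, with 4.6% at no read and 89.5% at 50 or more. Fos (3.43% and 76%) and Btg2 (4.55% and 78.9%) resembled Cd69 in these shares. Of all cells, 18.1% held 5 to 49 reads of Fos and 14% of Btg2, beside 12.1% and 15.6% with no read. Egr1 was detected in fewer cells but was high where present: 12.5% of its cells with reads held 1 to 4 and 68.5% held 50 or more. Genes detected in 30 to 60% of cells (2051 genes) had medians of 21.6% and 29.7%. Nr4a1, also in that range, had 20.8% and 46.1%. Dusp2, detected in 60% of cells, lay near the medians of the 60 to 95% range (11.7% and 51.2%). Jun was present in most cells at a moderate level, with 23% of its cells with reads at 50 or more. Junb was the least switch-like: 48.2% of its cells with reads held 1 to 4 and 11.6% held 50 or more. Genes detected in 10 to 30% of cells, as Junb was, had medians of 30.4% and 21.6%. Ier2, in the 30 to 60% range, resembled Junb (34.4% and 17.5%).

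**Figure D2:**
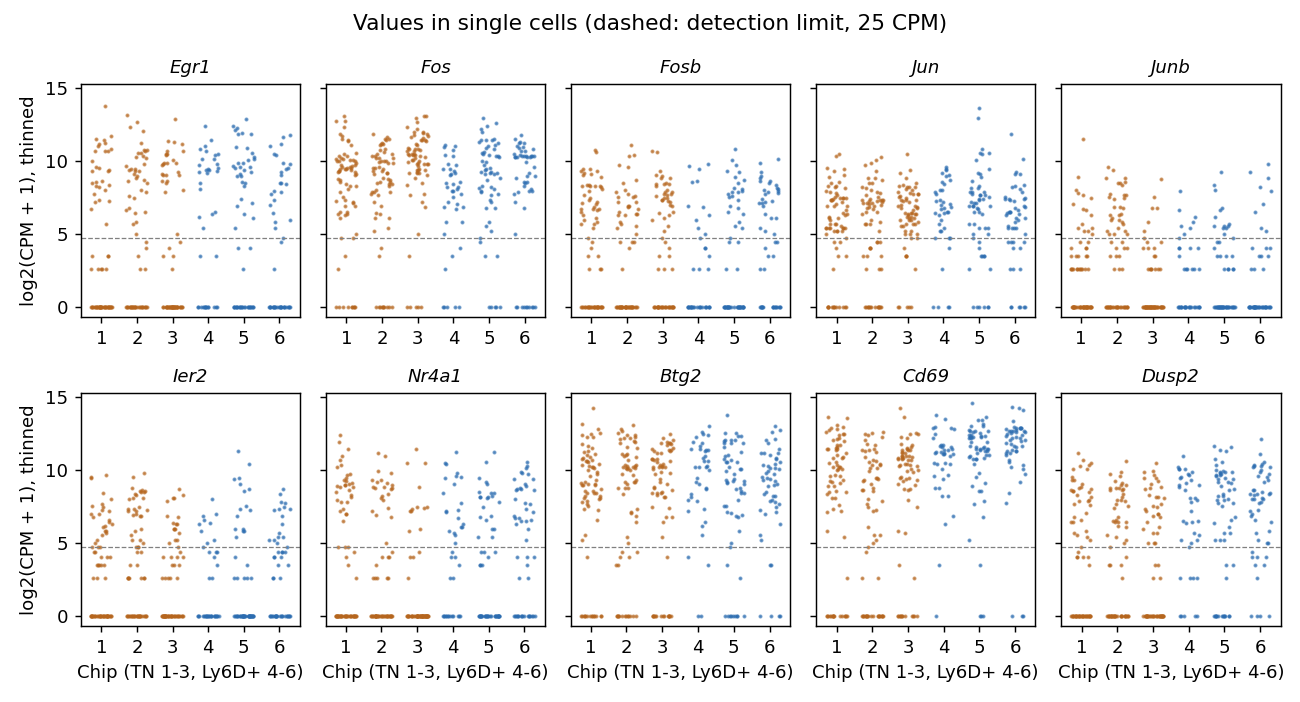
Values of the 10 genes in single cells as log2(CPM + 1) after thinning, by chip (TN 1 to 3, Ly6D+ 4 to 6); the dashed line is the detection limit of 25 CPM. Cells with no read lie at 0, and for Cd69, Fos, Btg2 and Egr1 few cells lie between them and the dashed line.

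Cd69 and Dusp2 differed between populations both in how many cells held them and, for Cd69, in how much. Cd69 was detected in 77.3%, 65.2% and 79.7% of cells on the TN chips and 95%, 93.3% and 94.2% on the Ly6D+ chips. For Ly6D+ chip 4, the smallest, the 95% Wilson interval ran from 83.5% to 98.6%; such intervals cover counting error only. Among the cells that held it, the median was 1432.5, 980 and 1710 CPM on TN and 2247.5, 2940 and 4650 CPM on Ly6D+ chips, and these did not overlap. Dusp2 was detected in 48%, 50.7% and 46.4% of TN and 77.5%, 73.3% and 78.8% of Ly6D+ cells by chip. Its median where detected was 332.5, 245 and 187.5 CPM on TN and 380, 552.5 and 325 CPM on Ly6D+ chips, which overlapped.

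Detection of Btg2 was 76.4% ± 3.8 in TN and 86.7% ± 4.4 in Ly6D+ (SD, n = 3 chips), also without overlap between the chips, though its chips overlapped when cells were not thinned. Egr1 (43.8% ± 8.6 and 54.4% ± 6.0) and Nr4a1 (32% ± 14 and 48.3% ± 10.2) overlapped. So did Fos (86.4% ± 4.4 and 82.5% ± 3.6), Fosb (48.3% ± 5.4 and 41.8% ± 11.9), Jun (74.2% ± 11.6 and 77.6% ± 7.0), Junb (25.5% ± 17.8 and 20.2% ± 3.0) and Ier2 (36.2% ± 10.1 and 28.1% ± 4.0). Shares of 3 of 10 genes did not overlap with Ly6D+ above, against 10.4% of tested genes, and 0 with Ly6D+ below, against 5.93%. An exact permutation test of 3 against 3 chips cannot go below p = 0.1.

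TN cells with Dntt held Cd69 and Dusp2 more often than other TN cells. The TN cells were divided by whether Dntt was detected, a gene chosen after the values of the 10 genes were seen and one that varied with Cd69 and Dusp2 in the same cells, so higher shares of both in the cells with Dntt follow from that choice and are a description. In the 65 TN cells with Dntt, Dusp2 was detected in 81.8%, 83.3% and 63.2% by chip, and in the other TN cells in 34%, 33.3% and 40%. Cd69 was detected in 95.5%, 91.7% and 94.7% against 69.8%, 51.1% and 74%. Nr4a1 averaged 51.3% against 23.4% and Egr1 58.4% against 37.7%, each higher on 3 of 3 chips. Fos (86.3% against 86.5%) and Fosb (48.1% against 48.6%) had near-equal means over chips that went opposite ways: Fos was at 95.5% against 81.1% on chip 1 and 84.2% against 94% on chip 3. Cells with Dntt also held more detected genes, 2727 against 2425 per cell, whose part in these shares was not tested.

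In cells with Dntt only, the detection shares of Cd69 and Dusp2 on TN and Ly6D+ chips overlapped; why was not tested. Ly6D+ cells with Dntt held Cd69 in 94.9%, 94.2% and 96% and Dusp2 in 76.9%, 80.8% and 82% by chip, which overlapped the TN values above for both genes. On sums of these cells the mean of Cd69 was 3109.6 ± 1178 CPM over the TN and 4079.7 ± 1004 CPM over the Ly6D+ chips (SD, n = 3), and the log2 fold change was 0.39 ± 0.30 (SE; edgeR adjusted p = 0.982). Dusp2 averaged 403.5 ± 108.4 and 481.8 ± 104.9 CPM and differed by 0.25 ± 0.29 on the log2 scale (SE; adjusted p = 0.994 by edgeR). The TN chips gave 19 to 24 such cells each. In this comparison edgeR called 0 of the 10 genes and 0.0% of 11027 tested genes in either direction, beside 24 genes over all cells. At an unadjusted p under 0.05, 0 of 10 were higher, against 3.36%, and Nr4a1 was lower (386.2 ± 110.4 CPM in TN, 229.7 ± 41.5 in Ly6D+), against 2.06%. Detection did not overlap for 0 of 10 genes with Ly6D+ above (5.89% of tested genes) and for Ier2 with Ly6D+ below (5.01%).

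**Figure D3:**
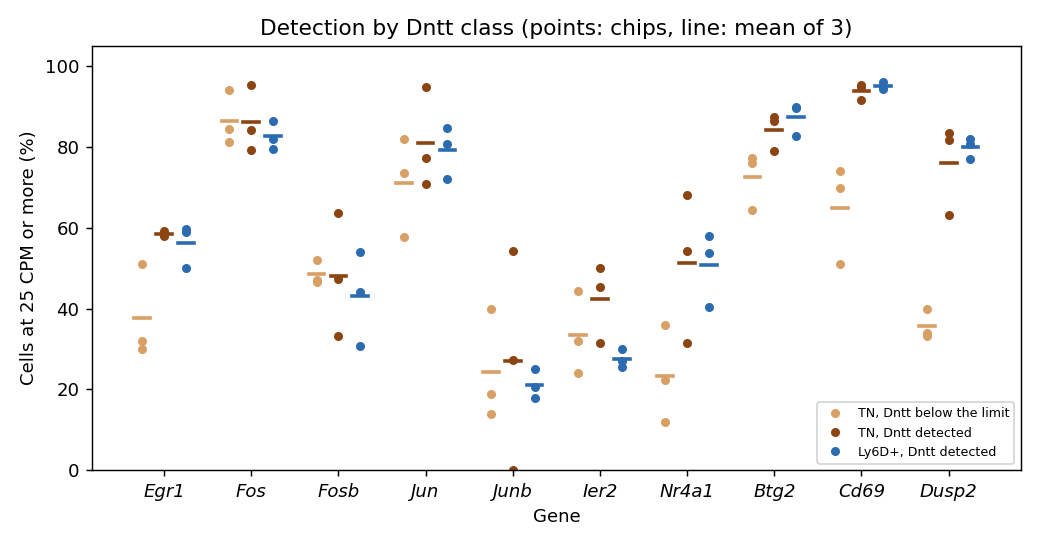
Share of cells with each gene at 25 CPM or more, on the vertical axis from 0, in TN cells without Dntt, TN cells with Dntt and Ly6D+ cells with Dntt; points are chips and lines are means of 3 chips. For Cd69 and Dusp2 the TN cells with Dntt lie beside the Ly6D+ cells and above the other TN cells.

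At least 1 marker of T, NK, mature B, neutrophil, macrophage or erythroid cells was detected in all but 58 TN and 54 Ly6D+ cells. Most of this came from Ccr2 (86 TN and 1 Ly6D+ cells), Cd28 (43 and 47), Klrk1 (47 and 7) and Lyz2 (41 and 28), while the defining markers listed above were at 0. In the cells that lacked all of them, Cd69 had a share of 88.3% ± 4.6 in TN and 92.2% ± 4.2 in Ly6D+, Dusp2 one of 65.3% ± 16 and 72.8% ± 6.3 (SD, n = 3 chips), and chips overlapped for all 10 genes. Within chips, the number of the 10 genes detected in a cell had a mean Spearman correlation of −0.124 (NK) to 0.042 (neutrophil) with the number of markers of these 6 types.

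Other classes of TN cells differed in some of the 10 genes and not in others. In the 55 TN cells with the class II gene H2-Aa, Cd69 was detected in 48.7% against 83.4% of the other TN cells, and Ier2 in 21% against 41.6%, lower on 3 of 3 chips. These cells held fewer detected genes (2027 against 2696), whose part was not tested. In TN cells with the granule genes Mpo or Prtn3, Cd69 was more frequent (85.1% against 63.2%) and Nr4a1 (18.2% against 45.4%) and Junb (17.6% against 33%) less, each on 3 of 3 chips. These cells held 2858 detected genes against 2199, and the part of that gap was not tested. Cells with the cycle gene Mki67 held Fos and Fosb more often on 3 of 3 chips of each population: Fos in 90.3% against 79.98% in TN and 89.9% against 75.8% in Ly6D+, and Fosb in 54.1% against 38.4% and 48.4% against 35.4%. Cells with Mki67 also held more detected genes on 3 of 3 chips (2739.6 against 2157 in TN, 2885 against 2514 in Ly6D+), whose part was not tested. In Ly6D+, the 63 cells with the B-lineage factor Ebf1 held Dusp2 more often (85.1% against 70.6%) and Fosb less (31% against 50.1%), each on 3 of 3 chips. Ly6D+ cells with Irf8, a factor of dendritic and myeloid cells, held Fos more often (86.9% against 72.9%) and Egr1 (49.4% against 64.8%) and Junb (15.3% against 30.8%) less, with 2818 detected genes against 2397, whose part was not tested. TN cells with Kit, the stem cell factor receptor, held Cd69 (79.6% against 70.1%) and Ier2 (43.7% against 32.9%) more often, both on 3 of 3 chips. For Cd69 the shares on chip 3 were near equal, at 80% against 79.63%. The 11 Ly6D+ cells without Dntt were too few for a comparison. All these divisions were chosen with results known and carry no test, and the genes named are among those that differed alike on 3 of 3 chips.

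Chips of 1 population differed in the 10 genes, and not all in the same way. The highest chip exceeded the lowest by over 3-fold for Junb (4.70-fold in TN, 3.41-fold in Ly6D+) and Ier2 (3.12-fold and 3.83-fold), 2 of 10 genes in each population over all cells. Of all tested genes, 39.3% did so in TN and 44.3% in Ly6D+, and of genes at 25 CPM or more 18.1% and 22.1%. Junb rested on few cells: a single cell held 55.4% of its reads on chip 1 and 38.3% on chip 3. Without the top cell of each chip its range was 6.61-fold in TN and 3.29-fold in Ly6D+. Nr4a1, with 44.8% of its chip 3 reads in a single cell, then moved from 2.44-fold to 3.55-fold in TN. With it 3 of 10 genes exceeded 3-fold there, and the share of all tested genes is not given for that setting.

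TN chip 3 stood apart in a mixed way. Its Fos lay 0.75 above the mean of the 3 TN chips on the log2 scale, while Junb lay at −1.35, Ier2 at −0.83 and Nr4a1 at −0.64. In all, 3 of the 10 genes lay above the mean there, beside 49.5% of all tested genes. On the same chip 10 of 11 heat-shock genes lay above it, and Hspa8, the constitutive HSP70 chaperone, reached 3881 CPM against 2157 and 1931 CPM. Atf3, a stress-induced AP-1 relative, was detected in 46.4% of its cells against 17.3% and 14.5%. Dusp1, a MAP kinase phosphatase induced with Fos, reached 700 CPM against 361 and 289. Cell composition differed as well: 6 of 6 myeloid progenitor markers lay above the mean on TN chip 3 (median 0.62 on the log2 scale), and 0 of 6 on TN chip 2. Interferon-response genes shifted on most chips: 15 of 15 lay above the mean on TN chip 3 and on Ly6D+ chip 5 (median 1.03 and 1.59 on the log2 scale), 12 of 15 on Ly6D+ chip 4 and 0 of 15 on Ly6D+ chip 6 (−2.03). On Ly6D+ chip 4, 3 of the 10 genes and 3 of 21 other early response genes lay above the mean of their 3 chips, and on Ly6D+ chip 5, 9 of 10 and 17 of 21, beside 48.8% and 50.5% of all tested genes. The run label of each chip carries a number code of its own. The codes of TN chips 1 and 2 are adjacent, and that of TN chip 3 is nearer to that of Ly6D+ chip 4. What the code counts is not stated in the labels, and each chip has its own. The parts of handling and of cell composition were not tested.

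**Figure D4:**
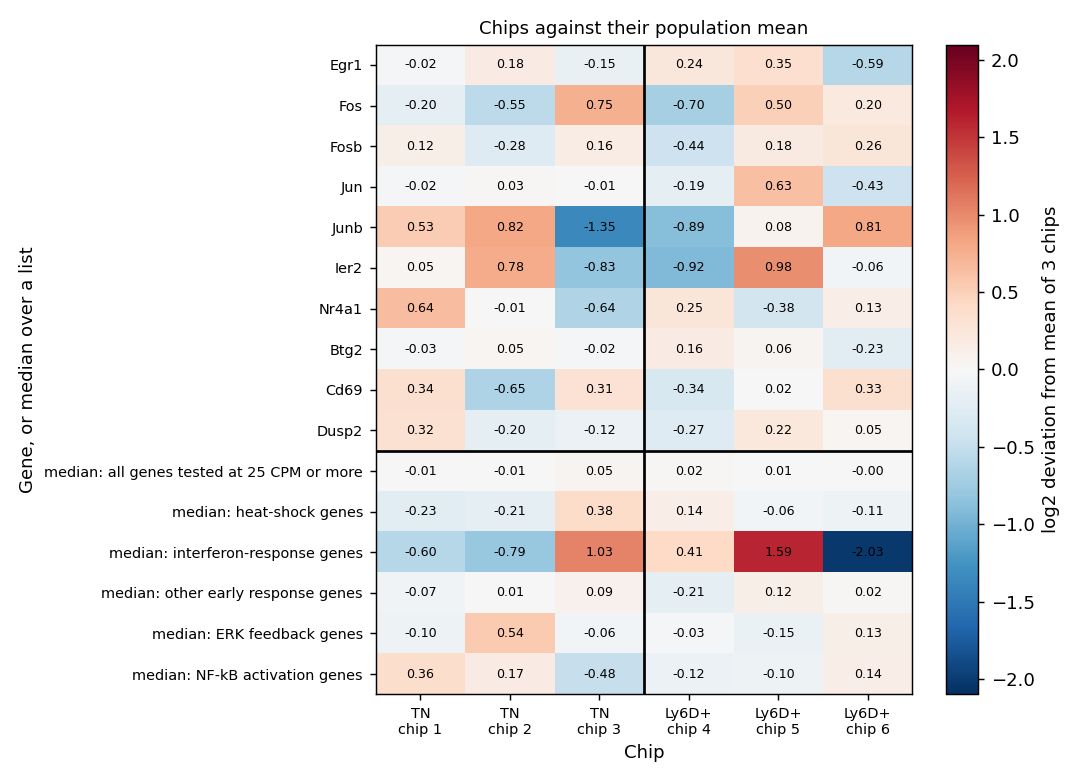
Deviation of each chip from the mean of the 3 chips of its population in log2(CPM + 1), for the 10 genes and for medians over lists; red is above and blue is below. On TN chip 3 Fos is at 0.75 and Junb at −1.35, and on Ly6D+ chip 5 all genes but Nr4a1 lie above the mean.

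Across the cells of a chip, the 10 genes varied together more than pairs of genes did in general, though weakly. The mean Spearman correlation over 6 chips had a median of 0.178 over the 45 pairs, beside 0.051 over all pairs of genes detected in 10% or more of cells. Of the 45 pairs, 44 lay above 0 (97.8%, beside 78.8% of all pairs) and 18 at 0.2 or more (40%, beside 1.69%). These are descriptions across cells that share a library run and differ in depth. The pairs of all genes were not matched to the 10 genes on detection. Of the genes behind them, 3889 were detected in 10 to 30% of cells, where only Junb of the 10 lay. The part of that gap was not tested. The highest pair was Fos and Fosb, at 0.437 (0.358 to 0.592 over chips), whose upstream sequences are shown above. Cd69 and Dusp2 followed at 0.355 (0.209 to 0.503) and Fosb and Junb at 0.328. Fos and Dusp2 stood at −0.024, and Egr1 and Ier2 at 0.013.

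**Figure D5:**
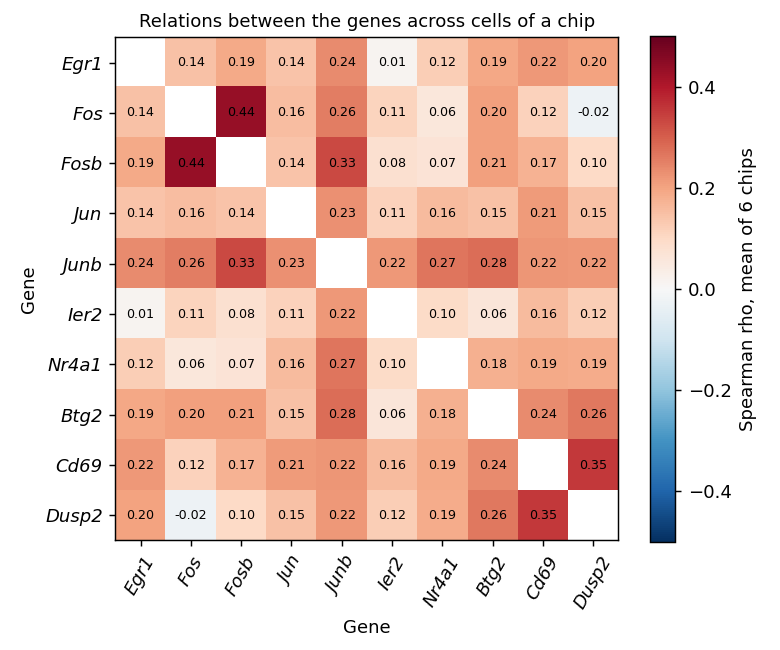
Spearman correlation of each pair of the 10 genes across the cells of a chip, as the mean of 6 chips; red is positive. Fos with Fosb (0.437) and Cd69 with Dusp2 (0.355) are the highest, and Fos with Dusp2 (−0.024) is the lowest.

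The genes most like each member, among 6957 genes, overlapped between members. Fos went with Fosb, Dusp1 (0.362) and Klf4 (0.287), and Fosb with Fos, Dusp1 (0.339) and Junb. Btg2 (0.381), Egr1 (0.273) and Jun (0.247) shared Zfp36, an RNA-binding protein that destabilises AU-rich transcripts, and Junb was among the 3 genes most like Egr1, Fosb and Btg2. Nfkbiz, an NF-kB cofactor, held the top place for both Jun (0.256) and Cd69 (0.456). Cd69 also went with Dntt (0.412) and Gimap6 (0.372), and Dusp2 with Dntt (0.415), Gimap6 (0.368) and Cd69. Nr4a1 went with Ctla2a (0.303), Dntt (0.276) and Dok2 (0.272). Junb went with Fosb, Kdm6b (0.305) and Btg2, and Ier2 with Vps39 (0.243), Ubp1 (0.228) and Pik3r1 (0.224). Of the 30 places, members held 9 and other genes of the pathway lists 8, while such genes make up 1.45% of those searched. Pairs such as Fos and Fosb fill a place on both sides, and Zfp36, Dusp1 and Nfkbiz each fill more than 1. The lists were chosen with earlier results of these data known, so these counts are a description.

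A TN cell held 5.60, 5.54 and 5.22 of the 10 genes on average by chip, and a Ly6D+ cell 6.15, 5.95 and 6.21. The means were 5.45 ± 0.21 and 6.10 ± 0.14 (SD, n = 3 chips). Without Cd69 and Dusp2 they were 4.23 ± 0.23 and 4.40 ± 0.10 of 8, and among cells with Dntt the difference had the opposite sign (−0.26). At least 8 of the 10 were found in 25 TN (11.7%) and 37 Ly6D+ cells (24.3%), all 10 in 3 cells and none in 2. Within a chip the count varied 1.41 to 2.20 times as much as the genes' separate variances sum to. That ratio was not computed for other sets of genes, and 78.8% of all pairs of genes had a mean correlation above 0. The count of the 10 genes went with that of NF-kB activation genes (mean Spearman 0.477, 0.393 to 0.540 over chips) and of other early response genes (0.454, 0.196 to 0.647). With genes detected per cell it stood at 0.241 (0.123 to 0.426), with heat-shock genes at 0.159, with interferon-response genes at 0.046 and with G2/M genes at 0.013.

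In the wider pathway no gene was called by edgeR in either direction, where 0.0932% of all tested genes were called higher and 0.11% lower. At edgeR's unadjusted p under 0.05, 4.27% of all tested genes were higher in Ly6D+ and 4.1% lower. The counts of each list below stand beside these shares. Of AP-1, Egr and Nr4a relatives, 13 of 15 were tested and their median log2 fold change was −0.13, with 0 higher and 1 lower at an unadjusted p under 0.05. Their highest members, Atf4 (315 and 300 CPM), Atf3 (202.6 and 201.5) and Nr4a2 (42.3 and 36.4), had like means in TN and Ly6D+. Of other early response genes, 21 of 24 were tested (median 0.0063, 3 higher and 2 lower at that p). Zfp36l2, an RNA-binding relative of Zfp36, averaged 785 ± 143.4 CPM in TN and 1144 ± 12.1 in Ly6D+ (edgeR adjusted p = 0.40), and Rgs2, a regulator of G protein signals, 688.8 ± 155.02 and 373.5 ± 153.4 CPM (0.438). Over all tested genes the median was 0.014.

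Of ERK feedback genes, 10 of 10 were tested, with 1 higher at an unadjusted p under 0.05. Over all tested genes the shares at that p were 4.27% higher and 4.1% lower. The ERK feedback gene was Dusp6, a phosphatase of ERK, at 140 ± 22.1 CPM in TN and 228 ± 61.5 in Ly6D+ (edgeR adjusted p = 0.537). NF-kB activation genes (14 of 14 tested) had 1 higher and 1 lower, and Nfkbia, the NF-kB inhibitor, lay at 377.6 ± 123.9 and 389 ± 118.3 CPM. Of the upstream SRF, ERK and CREB genes, 18 of 18 were tested, with 1 higher and 3 lower. Mapk14, the p38 kinase, averaged 379 ± 53.98 CPM in TN and 223 ± 35.7 in Ly6D+ (edgeR adjusted p = 0.310).

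Genes tied to Cd69 and to egress from tissue were 7, of which 3 were higher at an unadjusted p under 0.05, Cd69 itself among them. S1pr1, the receptor Cd69 binds and a gene named for that link after its values were seen, was at 0 CPM on the 3 TN chips and at 0.454, 10.9 and 12.1 CPM on the Ly6D+ chips. Heat-shock genes had 0 of 11 tested past an unadjusted p of 0.05, and Hsp90ab1 lay at 5756 ± 812 and 6097 ± 649 CPM.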

How the data were processed

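Full-length single-cell cDNA was made on Fluidigm C1 chips with a SMARTer kit and sequenced as Nextera XT libraries, per the labels' protocols, a chemistry without molecular identifiers or strand information. The authors deposited raw read counts per gene and cell for the 365 cells that passed their quality filter, with a gene length used here for levels per kilobase. The submitters' processing notes name the build mm9 and R 3.2.0, and no aligner or counting program is named in the sources used here. Symbols came from RefSeq (GRCm38.p6) for 23334 of 23427 identifiers. No doublet caller was run. Detection used cells thinned to 200000 reads.

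The replicate was the chip. The test on chip sums was edgeR 4.0.16 (R 4.3.3; quasi-likelihood, TMM, filterByExpr, Benjamini-Hochberg adjusted p under 0.05), and all 10 genes passed the filter. SE is the absolute log2 fold change over the square root of F. DESeq2 1.42.0 and limma 3.58.1 were alternatives. The steps were tested on simulated data. The members and lists were chosen with earlier results of these data known. Named genes were all members, called genes and up to 3 per pathway list with the highest CPM, and the 3 genes most like each member with 1 sign on all 6 chips. S1pr1 and the genes that define cell classes were named outside that rule. Some genes that the rule names are left out of the text.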

Additional observations from a re-analysis of the deposited data

How the results depend on the processing

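Single-gene log2 fold changes were recomputed under 13 other settings each; of 130 values, 9 changed sign, 4 passed the threshold and the rest kept direction and side. With each chip left out in turn, Fos ranged from −0.70 to 0.033, Fosb from −0.34 to 0.00060, Ier2 from −0.92 to 0.21 and Nr4a1 from −0.13 to 0.53. The count of genes with separate detection shares then ranged from 3 to 5, where fewer chips make separation easier. DESeq2 and limma-trend each called 2 of the 10 genes (Cd69 and Dusp2), and 6 and 5 genes of the wider lists. Of 11797 tested genes they called 390 and 326. Chip ranges on means of log2(CPM + 1) over cells exceeded 3-fold for 4 genes in TN and 1 in Ly6D+. Shares over all tested genes are not given for these ranges or for the counts with a chip left out. The last 3 settings given here were chosen after seeing the data. With only cells with Dntt, Fosb was at 0.51 and Nr4a1 at −0.75, 1 gene had separate detection shares (Ier2), and the difference in members per cell was −0.26. Without cells with a marker of another cell type, edgeR called 0 of 10066 tested genes. Egr1 was then at −0.20 and Nr4a1 at −0.35, 0 genes had separate shares, and the difference in members per cell was −0.0042. Without Cd69 and Dusp2 it was 0.170. The cause of these changes was not tested. No paired analysis was possible because the populations share no chip. With 3 chips per population, differences of the size seen in the other 8 genes could not be told from chip spread.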
